A study of Mus musculus with 6 samples.

Results

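The Hox genes were followed across 6 arrays of mouse mandibular arch, a tissue that forms the lower jaw from cranial neural crest lacking Hox expression. Members were the probe sets that the platform annotation assigns to a single symbol made of Hox, a cluster letter from a to d and a paralog number. This gave 48 probe sets of 33 genes, out of 45037 non-control probe sets, and 11 of the genes had 2 or more sets. By cluster, 16 sets represented 9 Hoxa genes, 11 sets 9 Hoxb genes, 11 sets 7 Hoxc genes and 10 sets 8 Hoxd genes. The other 6 of the 39 mouse Hox genes in the RefSeq table had no set of their own among these. The 3 sets annotated to neighbouring pairs, Hoxd4 with Hoxd3 and Hoxb8 with Hoxb7, were left out.

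The tissue came from C57BL/6 embryos at E10.5, and 3 arrays were labelled Tbx1+/+ (wild type) and 3 Tbx1-/- (homozygous null for the T-box factor Tbx1), here called labelled null. Arches of 3 embryos were pooled for each genotype, and the description does not settle whether every array had a pool of its own. The p-values therefore measure only the spread between these samples, which may be technical, and in a dissected tissue fewer cells of a type and less RNA per cell cannot be told apart. Values are deposited log2 expression made with GCRMA, a method that corrects background by probe sequence and summarizes the probes of a set.

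Hox genes encode homeodomain transcription factors that lie in 4 chromosomal clusters, and their order along a cluster parallels the order of their expression along the head-to-tail axis. Genes at corresponding places of the clusters share a paralog number. In the pharyngeal region the neural crest of the first arch, which includes the mandibular arch, has no Hox expression, and the second arch expresses genes of paralog group 2. Hoxa2 is the selector of second-arch identity: without it that arch forms first-arch skeletal elements, and when it is expressed in the first arch, jaw structures are lost.

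All 18 mandibular mesenchyme genes listed were above 4 on every array, a level within the range of the background reference used below. Their list mean lay between 10.15 and 10.18 on the wild-type arrays and between 10.08 and 10.23 on the labelled-null arrays. Some of them, such as Barx1, Pitx1 and Gsc, are also in the list below of genes tied to Hoxa2 in the second arch. The list therefore does not tell these arches apart. Tbx1 itself had a wild-type mean of 7.06 ± 0.22 (log2, SD, n = 3) and a labelled-null mean of 7.46 ± 0.15 (SD, n = 3). Which stretch of Tbx1 the null allele removes is not stated, so this probe set is no check of the genotypes, and every direction here rests on the labels. Labelled-null replicate 3 stood apart, where 286 genes exceeded the mean of the remaining arrays by more than 1 (log2), against 7 to 34 genes for each of those. Its placental prolactins Prl7a1 and Prl4a1 read 13.28 and 13.19, against at most 4.76 and 6.04 elsewhere. The main Hox values are therefore also given without this array, a choice made after seeing the data for the counts over all members.

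Most Hox probe sets read low, within the range of genes that serve as background here. Since the file holds no detection calls, 81 probe sets of chemosensory receptors (olfactory, vomeronasal, trace amine and taste receptors, 73 genes), which an arch is not expected to express, served as a reference for background. The 95th percentile of this reference lay between 6.32 and 6.60 (log2) on the wild-type arrays and between 6.29 and 6.69 on the labelled-null arrays. On all 3 wild-type arrays 0 Hox genes exceeded it, and on all 3 labelled-null arrays 1 did, Hoxc8, in its single set. At the 75th percentile, an alternative chosen after seeing the data, there were 15 such genes on the wild-type and 16 on the labelled-null arrays, but only 2 and 1 of them in more than one set. A level above this reference is therefore no proof of transcript, nor a level below it of absence, and probe sets of different genes are not ranked by level. The median of the Hox sets was between 4.26 and 4.54 on the wild-type arrays, and that of the reference between 3.71 and 3.76.

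**Figure D1:**
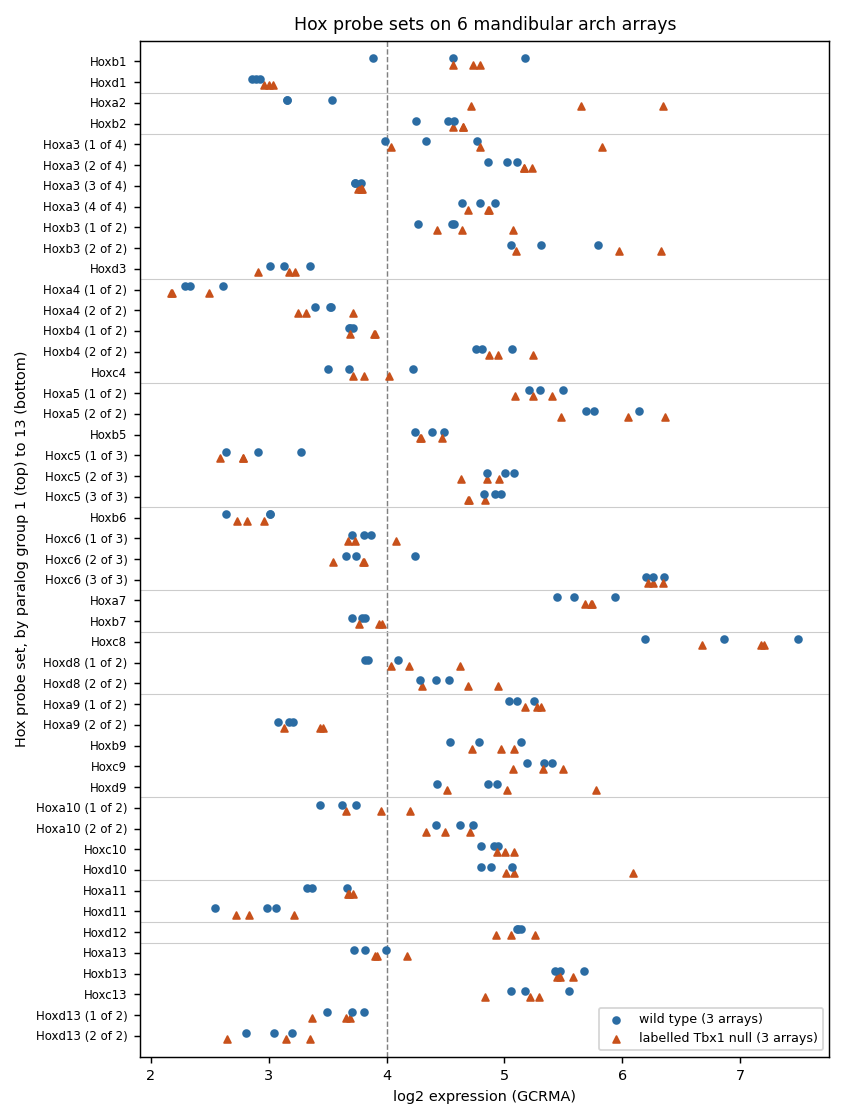
Log2 expression of all 48 Hox probe sets, by paralog group from 1 (top) to 13 (bottom), with wild-type arrays as circles, labelled-null arrays as triangles and the filter level of 4 as a dashed line. Hoxa2 is the set whose genotypes lie furthest apart, with wild-type values of 3.15 to 3.54 and labelled-null values of 4.72 to 6.34; in most other sets the symbols intermix.

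A few members varied widely over the 6 arrays. The median range from the lowest to the highest of the 6 arrays was 0.44 for the Hox sets, 0.47 for the reference and 0.41 for all non-control sets (log2). The range was above 1 in 7 Hox sets (14.6%), in 1 reference set (1.23%) and in 3.94% of all sets. These 7 were the set of Hoxa2 (3.19), the s_at set of Hoxa3 (1.84), Hoxd9 (1.35), Hoxc8 (1.30), Hoxb1 (1.29), Hoxd10 (1.29) and the brighter set of Hoxb3 (1.27). They differed in where the spread lay. For Hoxb1 and Hoxc8 it lay among the wild-type arrays, and for Hoxa3, Hoxb3, Hoxd9 and Hoxd10 mainly among the labelled-null arrays. Without labelled-null replicate 3 the range was above 1 in 5 Hox sets (10.4%), in 1 reference set and in 2.41% of all sets, as that of Hoxd9 was then 0.594 and that of Hoxd10 0.278.

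**Figure D2:**
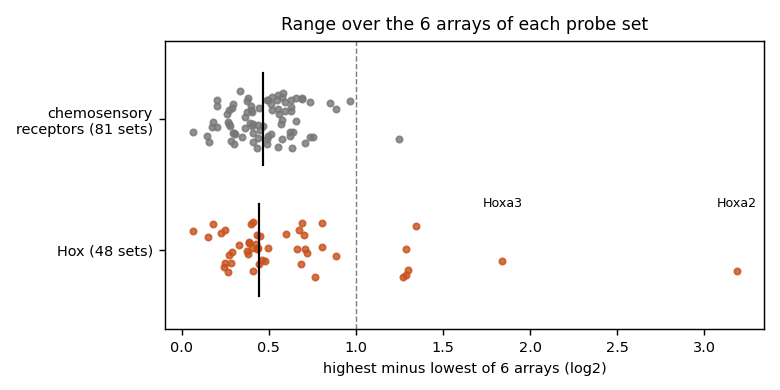
Highest minus lowest of the 6 arrays (log2) for each of the 48 Hox and 81 chemosensory receptor probe sets, with medians as vertical bars and a dashed line at 1. The bulk of both groups overlaps at medians of 0.44 and 0.47, while 7 Hox sets and 1 receptor set lie beyond the line, Hoxa2 furthest at 3.19.

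Hoxa2 had the largest difference between the genotypes among the 48 Hox sets, with every labelled-null array above every wild-type array. Its single probe set, 1419602_at, read 3.54, 3.16 and 3.15 (log2) on wild-type replicates 1, 2 and 3, and 5.65, 6.34 and 4.72 on labelled-null replicates 1, 2 and 3. The groups did not overlap, and labelled-null replicate 3 was the lowest of its group. On the wild-type arrays between 28.4% and 40.7% of the receptor sets read lower than Hoxa2, and on the labelled-null arrays between 75.3% and 91.4%. The means were 3.28 ± 0.22 (SD, n = 3) and 5.57 ± 0.82 (SD, n = 3), a difference of 2.29 (SE 0.35), or 4.88-fold. All wild-type values were below the filter level of 4, within the range of the receptor sets, so the fold has a background value as its denominator.

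The difference of Hoxa2 did not pass the test over all probe sets. Its adjusted p was 0.36 in limma with Benjamini-Hochberg adjustment over 37515 sets, the unadjusted p was 0.000128, and a two-sided exact permutation test gave p = 0.10, the smallest that 3 arrays against 3 allow. Without labelled-null replicate 3 the difference was 2.71 (SE 0.23) and passed in limma, with an adjusted p of 0.0157, among 13 probe sets of all tested (0.0347%). That fit kept the sets filtered on all 6 arrays. With replicate 3 left out, Hoxa2 was above 4 only on labelled-null replicates 1 and 2, so a filter of at least 3 arrays would then have dropped it. Leaving out any of the other 5 arrays did not bring the difference past the threshold, and the lowest difference was then 1.90, without labelled-null replicate 2. With values under 4 raised to 4 it was 1.57 (SE 0.34). The set passed the filter on low values through its labelled-null arrays alone, and a set that does so had to differ. The gene has 1 probe set here, so no second set could be compared. Hoxa2 was known from an earlier report on these data to be high on the labelled-null arrays, so these tests are no independent support.

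The sequence before the start of Hoxa2 is shown because this gene carried the difference, beside those of Hoxa3, its neighbour in the cluster, and Hoxd10, a posterior gene highest on a single array. These are the 250 bases upstream of the start in RefSeq (GRCm38.p6), 5′ to 3′ on the gene's strand, and 19 of the 33 genes matched an entry of that table. Capitals mark matches, on either strand, to TGATNNAT, the joint site of PBX and HOX proteins, and to TGACAG, the site of MEIS proteins, the homeodomain partners of HOX factors. The 2 motifs do not share a position in these sequences.
Hoxa2, chr6:52164832-52165081, minus strand: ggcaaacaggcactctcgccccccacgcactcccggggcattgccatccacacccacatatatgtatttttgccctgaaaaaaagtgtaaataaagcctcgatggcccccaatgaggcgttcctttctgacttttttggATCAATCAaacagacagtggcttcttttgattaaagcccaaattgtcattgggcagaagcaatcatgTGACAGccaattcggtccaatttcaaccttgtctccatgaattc
Hoxa3, chr6:52213068-52213317, minus strand: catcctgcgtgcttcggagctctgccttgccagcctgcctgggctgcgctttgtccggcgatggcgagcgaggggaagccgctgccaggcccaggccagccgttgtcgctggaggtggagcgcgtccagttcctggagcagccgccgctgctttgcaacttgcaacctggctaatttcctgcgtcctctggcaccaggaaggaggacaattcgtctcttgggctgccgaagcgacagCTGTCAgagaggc
Hoxd10, chr2:74691641-74691890, plus strand: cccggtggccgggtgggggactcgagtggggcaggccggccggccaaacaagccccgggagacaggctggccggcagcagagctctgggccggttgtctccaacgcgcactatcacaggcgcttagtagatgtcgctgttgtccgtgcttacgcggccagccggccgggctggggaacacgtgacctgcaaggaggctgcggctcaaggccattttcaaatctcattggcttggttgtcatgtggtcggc
Hoxa2 held 1 match to TGATNNAT, read as ATCAATCA on its own strand, which began 111 bases before the start, and 1 to TGACAG, which began 44 bases before it. Hoxa3 held 1 match to TGACAG on the opposite strand, and Hoxd10 none to either. Of the 32851 promoters in the table, 7.68% held TGATNNAT, 15.9% TGACAG and 1.3% both, and of the 21 Hox promoters 3, 2 and 1 did. A match describes the letters and is not a site shown to be used.

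Hoxb2, the paralog of Hoxa2 that works in the second arch and hindbrain, did not show such a difference. It read 4.52, 4.57 and 4.25 (log2) on wild-type replicates 1 to 3 and 4.57, 4.65 and 4.64 on labelled-null replicates 1 to 3. The ranges overlapped slightly, and the difference was 0.17 (SE 0.13, limma adjusted p = 1.00), or 0.07 without wild-type replicate 3. Of paralog group 1, which acts in hindbrain segmentation, Hoxb1 read 3.88, 4.57 and 5.17 on the wild-type arrays and 4.73, 4.79 and 4.56 on the labelled-null arrays, so the wild-type arrays enclosed the others. Hoxd1 stayed between 2.85 and 3.03 on all 6 arrays.

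Paralog group 3 genes, which pattern the third arch and its derivatives such as thymus and parathyroid, were highest on labelled-null replicate 2 in part of their probe sets. The brighter set of Hoxb3, 1456229_at, read 5.79, 5.31 and 5.06 on wild-type replicates 1 to 3 and 5.97, 6.33 and 5.10 on labelled-null replicates 1 to 3. Its other set, 1427605_at, read 4.57, 4.55 and 4.27, then 4.64, 5.07 and 4.43. Both Hoxb3 sets thus had their highest value on labelled-null replicate 2 and their lowest on wild-type replicate 3, with differences of 0.41 (SE 0.31) and 0.25 (SE 0.18) that did not pass. Labelled-null replicate 2 was likewise highest for Hoxa2.

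The 4 sets of Hoxa3 disagreed. The s_at set, 1427433_s_at, read 4.77, 4.34 and 3.99 on the wild-type arrays and 4.79, 5.83 and 4.04 on labelled-null replicates 1 to 3, so labelled-null replicate 2 stood well above the rest. A second set annotated to the same sequence record, 1452421_at, read 4.92, 4.79 and 4.64, then 4.87, 4.86 and 4.69, with no array standing out. The set 1429398_at read 5.11, 4.86 and 5.02, then 5.24, 5.17 and 5.16, all labelled-null values being higher, by 0.19 (SE 0.12) in the mean. The remaining set stayed between 3.73 and 3.79. Without labelled-null replicate 2 the difference of the s_at set went from 0.52 (SE 0.40) to 0.05, and that of the brighter Hoxb3 set from 0.41 to 0.15. Without labelled-null replicate 3 they were 0.95 (SE 0.32) and 0.76 (SE 0.23), with unadjusted p-values of 0.0165 and 0.00904 in limma that did not survive adjustment. Hoxd3, of the same group, stayed between 2.91 and 3.35.

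Paralog group 4, expressed from the caudal hindbrain backwards, showed differences between -0.13 and 0.14 in 5 sets. The 2 sets of Hoxa4 never exceeded 3.71, and Hoxc4 exceeded 4 on wild-type replicate 1 (4.22) and labelled-null replicate 2 (4.02). The brighter set of Hoxb4 read 4.76 to 5.07 on the wild-type arrays and 4.87 to 5.24 on the labelled-null arrays. Both Hoxb4 sets had labelled-null replicate 2 on top, at 3.90 and 5.24. Over paralog groups 1 to 4 this array was the highest in 8 of 16 sets, and labelled-null replicate 3 in 0. Over all non-control sets they were the highest in 12.2% and 16% of sets. Some of the 8 leads were slight, as for Hoxb2 (4.646 against 4.644 on labelled-null replicate 3). In the dimmer Hoxb4 set it was 3.904 against 3.890 on labelled-null replicate 1.

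**Figure D3:**
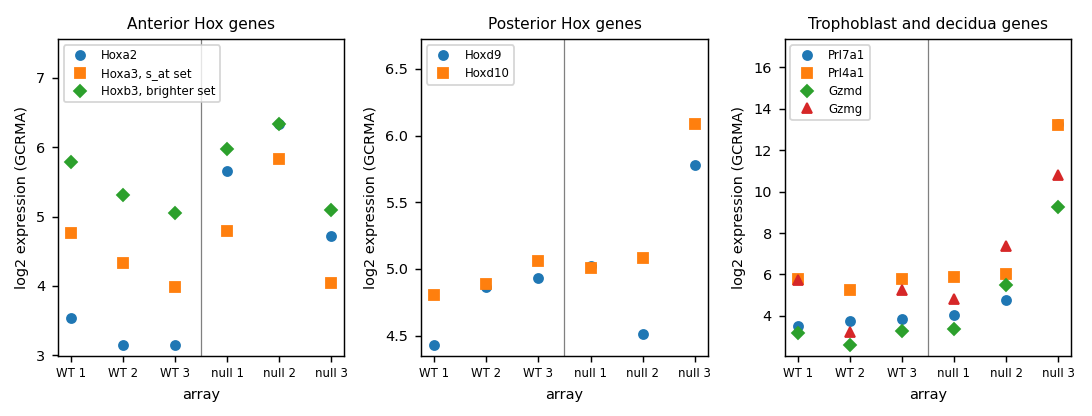
Log2 expression on each of the 6 arrays (WT, wild type; null, labelled null) of Hoxa2, the s_at set of Hoxa3 and the brighter set of Hoxb3 (left), of Hoxd9 and Hoxd10 (middle), and of trophoblast (Prl7a1, Prl4a1) and decidual (Gzmd, Gzmg) genes (right); axes differ between panels. The anterior genes peak on labelled-null replicate 2 (5.83 to 6.34) and the others on labelled-null replicate 3 (Hoxd9 5.78, Hoxd10 6.09, Prl7a1 13.28).

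The middle paralog groups, 5 to 8, which pattern the neck, thorax and their nerves, had differences in both directions, 8 of 15 sets being above 0, with a signed median of 0.00. Hoxc8, a thoracic gene, read 6.19, 6.86 and 7.49 on wild-type replicates 1 to 3 and 6.67, 7.17 and 7.20 on labelled-null replicates 1 to 3. The wild-type arrays enclosed the labelled-null ones, and the difference was 0.17 (SE 0.30), or -0.16 without wild-type replicate 1 and 0.49 without wild-type replicate 3. Hoxc8 has 1 set, so its level has no second measurement.

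Hoxc6 read at unlike levels in its sets, and which set is right cannot be told from these values. Its set 1427454_at read between 6.20 and 6.35 on all 6 arrays, while its other 2 sets read between 3.55 and 4.24. The 3 sets of Hoxc5 likewise split, with 2 between 4.63 and 5.08 and 1 between 2.58 and 3.27, and had lower labelled-null means in all of them, by 0.16 to 0.22. Hoxa5, which acts in lung and cervical skeleton, read 5.69 to 6.14 on the wild-type and 5.48 to 6.37 on the labelled-null arrays in its brighter set, a difference of 0.10 (SE 0.23). Its 2 sets did not share their highest array. Hoxa7 read 5.44 to 5.94, then 5.69 to 5.74, and Hoxb5 lay between 4.24 and 4.49 throughout.

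Hoxd8 was the member of these groups with the largest difference. Its set 1431099_at read 3.81, 3.84 and 4.10 on the wild-type arrays and 4.19, 4.62 and 4.04 on the labelled-null arrays, a difference of 0.37 (SE 0.17, unadjusted p = 0.0622 in limma). Its set 1433638_s_at read 4.42, 4.53 and 4.28, then 4.94, 4.30 and 4.69, a difference of 0.23 (SE 0.17). Both means were higher, but the arrays were not the same: labelled-null replicate 2 was the highest in the former set and second lowest in the latter. Hoxb6 (2.64 to 3.01) and Hoxb7 (3.71 to 3.96) stayed under 4 on every array.

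Among posterior genes of paralog groups 9 to 13, which pattern the lumbosacral axis, limbs and urogenital tract, 2 neighbours in cluster d had a value on labelled-null replicate 3 above all other arrays. Hoxd10 read 4.80, 4.88 and 5.06 on the wild-type arrays, and 5.01, 5.08 and 6.09 on labelled-null replicates 1 to 3. Hoxd9 read 4.43, 4.86 and 4.93, then 5.03, 4.51 and 5.78. Their differences were 0.48 (SE 0.27) and 0.36 (SE 0.29), not past the threshold, and without that array 0.13 (SE 0.15) and 0.03 (SE 0.21). Hoxd11 and Hoxd12, the next genes of that cluster, read 2.72 and 4.93 on this array, against 2.55 to 3.22 and 5.06 to 5.26 on the other 5.

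Labelled-null replicate 3 was also the array with placental and decidual transcripts. The mean of the 15 trophoblast genes measured was 8.13 on it, 4.29 and 4.46 on the other labelled-null arrays and 4.18 to 4.22 on the wild-type arrays. That of 13 genes of decidua and uterine stroma, where Hoxa10 and Hoxa11 are known regulators, was 8.19 there. It was 5.67 and 6.63 on labelled-null replicates 1 and 2, and 5.31 to 5.74 on the wild-type arrays. Of the decidual genes Prl3c1 was above 4 on no array. The 1431475_a_at set of Hoxa10 read 3.74, 3.43 and 3.62 on the wild-type arrays and 3.65, 3.95 and 4.20 on labelled-null replicates 1 to 3. Its other set read 4.42, 4.62 and 4.73, then 4.33, 4.71 and 4.49. Hoxa11 read 3.66, 3.32 and 3.37, then 3.68, 3.67 and 3.71. The part of these cells in the posterior Hox values was not tested.

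The remaining posterior sets held no separation beyond the spread of the arrays. Over paralog groups 9 to 13 the median difference was 0.11 in 17 sets (0.0667 without labelled-null replicate 3). That array was the highest in 7 of them, and in 16% of all non-control sets. Hoxa13 read 3.72 to 3.99 and 3.90 to 4.17, Hoxb13 5.43 to 5.68 and 5.44 to 5.58, and Hoxc13 5.06 to 5.55 and 4.83 to 5.29 on the wild-type and labelled-null arrays. The 2 sets of Hoxd13 stayed between 2.64 and 3.81. Hoxc9, Hoxc10, Hoxb9 and the brighter set of Hoxa9 differed by -0.01, 0.13, 0.11 and 0.12.

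Over all members, 29 of 48 sets, representing 23 of 33 genes, passed the filter of a value above 4 on at least 3 arrays. In these, 0 sets passed an adjusted p of 0.05 in limma in either direction (background 0.00533%, 2 sets of 37515, Lrrn1 and Tcf21, both lower). With an unadjusted p below 0.05 there was 1 higher set, Hoxa2, and 0 lower, where 1.25% and 1.06% of all tested sets were (2.31% together). The groups did not overlap in 4 of the 48 sets (8.33%), those of Hoxa2, Hoxa11, Hoxd1 and the 1429398_at set of Hoxa3, all with the labelled-null arrays above; without the filter the background was 3.08% above and 3.42% below, and among tested sets 2.82% above and 3.25% below (6.07% together). For Hoxd1 this separation amounted to 0.11 at values of 3.03 or less, under the level of the filter, as was that of Hoxa11. The other 3 sets of Hoxa3 overlapped between the genotypes, and the other 3 genes have 1 set each.

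The labelled-null mean was higher in 32 sets and lower in 16. That is 66.7% higher, where 46.6% of all non-control sets were, and the median difference was 0.08 against -0.01 over all sets. Without labelled-null replicate 3, 35 sets (72.9%) were higher against 48.4% of all sets, and the medians were 0.076 and -0.0047. Sets of 1 gene and genes of 1 cluster are not independent, so this is a description. By cluster the median difference was 0.11 for Hoxa, 0.13 for Hoxb, -0.01 for Hoxc and 0.08 for Hoxd, with 12 of 16, 8 of 11, 5 of 11 and 7 of 10 sets above 0. Without that array the medians were 0.0783, 0.175, -0.0736 and 0.073. Apart from Hoxa2, differences ran from -0.22 (a dim set of Hoxc5) to 0.52 (the s_at set of Hoxa3), and 37 of these 47 sets lay within 0.2 of 0.

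**Figure D4:**
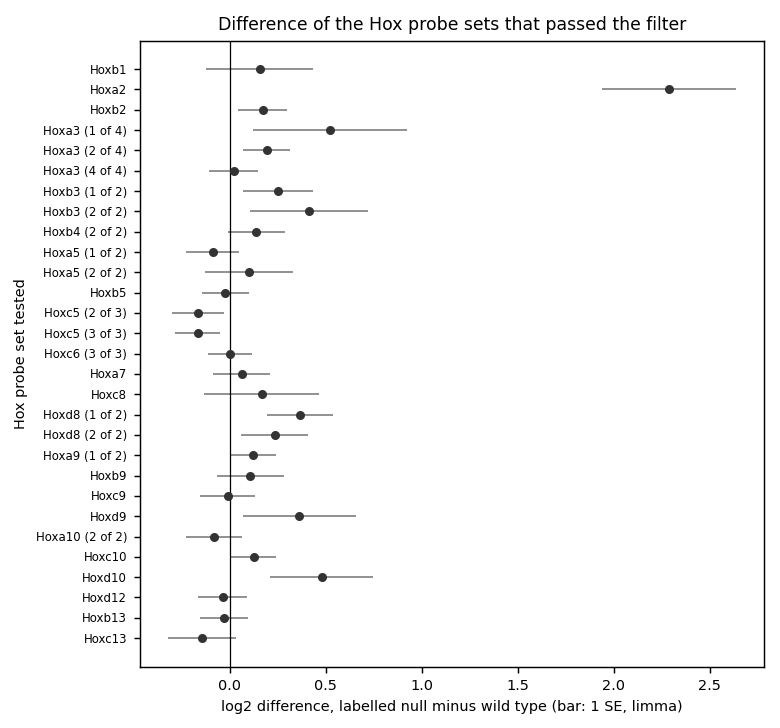
Log2 difference, labelled null minus wild type, of the 29 Hox probe sets that passed the filter, in paralog order, with bars of 1 SE from limma. Hoxa2, which passed the filter through its labelled-null arrays alone, lies at 2.29, and the others lie between -0.17 and 0.52.

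Genes that work with HOX proteins were present and did not differ past the threshold. Of 8 cofactor genes measured, which encode PBX, MEIS and PKNOX homeodomain proteins, 0 passed in limma, all were above 4 on every array, and the median difference was -0.01, or 0.05 without labelled-null replicate 3. At an unadjusted p under 0.05 there was 1 lower, Pknox2, which read 10.27, 10.41 and 10.26 on the wild-type and 10.12, 10.11 and 10.12 on the labelled-null arrays (difference -0.19, SE 0.08). Meis2 differed by 0.13 (SE 0.08), Pbx3 by -0.13 (SE 0.09) and Meis3 by 0.07 (SE 0.10).

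Of 21 Polycomb and trithorax genes measured, whose proteins keep Hox clusters silent or active, 0 passed and the median difference was -0.03. Cbx7, a Polycomb subunit that reads methylated histone, was the one at an unadjusted p under 0.05 (0.0189 in limma), with 5.78, 5.88 and 5.77 on the wild-type and 6.10, 6.08 and 6.47 on the labelled-null arrays, without overlap. Jarid2 differed by 0.19 (SE 0.11), Bmi1 by -0.12 (SE 0.07) and Ezh1 by 0.13 (SE 0.11). The groups did not overlap for Bmi1 and Ezh1 either, as in 6.07% of all tested sets.

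Of 14 tested regulators that set Hox domains, 0 passed in limma, while 1 was higher and 1 was lower with an unadjusted p below 0.05. Gbx2, a homeobox factor of the anterior hindbrain and arch, read 8.27, 8.28 and 7.94, then 6.93, 7.44 and 7.55, a difference of -0.86 (SE 0.18) without overlap. Otx2, which marks the Hox-free head, differed by 0.61 (SE 0.20), and its wild-type values of 6.41, 6.31 and 6.85 lay under labelled-null values of 7.51, 6.91 and 6.98. Egr2, an activator of Hoxa2 and Hoxb2 in the hindbrain, read 4.38, 4.84 and 4.25, then 5.58, 4.64 and 4.44, so labelled-null replicate 1 alone was higher. Cyp26a1, which degrades retinoic acid, differed by -0.39 (SE 0.25).

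Genes tied to Hoxa2 in the second arch showed no difference past the threshold, 0 of 13 in limma, with a median difference of 0.04. At an unadjusted p below 0.05 in limma 1 was higher. Alx4, Barx1, Gsc, Lhx6, Lhx8 and Pitx1 of this list are also in the mandibular mesenchyme list, so it does not read the second arch alone. Six2, which Hoxa2 represses, read 6.80, 6.72 and 6.39, then 6.53, 6.53 and 6.20 (difference -0.22, SE 0.16). Alx4 differed by 0.32 (SE 0.14), Zfp703 by 0.19 (SE 0.09) and Gsc, a homeobox factor of arch skeleton, by -0.33 (SE 0.22). Among 10 tested transcripts in or beside the Hox clusters, 0 passed and 1 was higher at an unadjusted p under 0.05, Calcoco1, beside cluster c, by 0.21 (SE 0.08). Skap1 differed by -0.19 (SE 0.22), Cbx5 by -0.04 (SE 0.05) and Skap2, beside cluster a, by -0.10 (SE 0.12).

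Markers of other tissues that could accompany an arch were measured beside Hoxa2. Whether each of these tissues expresses Hox genes was not examined. Of 17 hindbrain and spinal cord genes 0 of 10 tested passed in limma, and the list mean was 4.31 to 4.36 on the wild-type and 4.34 to 4.48 on the labelled-null arrays. Olig2, Mnx1, Nkx2-2, Dbx2, Zic1 and Foxb1 were above 4 on no array. Another 9 of the 17 were above 4 on all 6 arrays, Sox2 being the highest with means of 8.63 (wild type) and 8.69 (labelled null). For these lists the lowest and highest list means follow in log2, wild type first. Cranial nerve neurons and ganglia gave 5.30 to 5.34 and 5.52 to 5.54 over 14 genes, and 0 of 12 tested passed. With an unadjusted p below 0.05 there were 3 higher, where 1.25% of all tested sets were, and 2 in either direction without labelled-null replicate 3. The neuronal Stmn2 read 5.13, 4.60 and 5.11, then 5.71, 5.95 and 5.90 (difference 0.90, SE 0.17), Pou4f1 differed by 0.34 (SE 0.12) and Neurod4 by 0.44 (SE 0.18). Tlx3 and Neurog2 of this list were above 4 on no array.

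Somite and trunk mesoderm gave 6.08 to 6.36 and 5.96 to 6.30 over 11 genes, with Foxc2, a forkhead factor that arch mesenchyme also expresses, lower by 0.55 (SE 0.10) and not past the threshold. Limb bud and lateral plate gave 7.53 to 7.57 and 7.47 to 7.63 over 10 genes. That list shares Pitx1, Prrx1 and Hand2 with the mandibular mesenchyme list, so its mean does not read limb tissue alone. Caudal arches, endoderm and heart gave 5.35 to 5.49 and 5.51 to 5.79 over 9 genes, and labelled-null replicate 3 was the highest. Hand1, which the caudal arch list shares with the mandibular one, read 9.63 on that array and 8.35 to 8.81 on the others. Allantois, yolk sac and blood gave 8.35 to 8.79 and 8.06 to 8.31 over 14 genes, with the yolk sac genes Ttr and Afp at differences of -1.78 (SE 0.49) and -1.47 (SE 0.47). In each of these 4 lists 0 genes passed in limma. With an unadjusted p below 0.05 there was 1 lower gene among somite, 1 among limb and 3 among yolk sac and blood genes, and 0 in the caudal arch list. The list means of cranial neurons, of caudal arches, endoderm and heart, and of trophoblast were higher on each labelled-null array than on any wild-type array, as Hoxa2 was. For the caudal arch and trophoblast lists the gap was small, from 5.49 to 5.51 and from 4.22 to 4.29. The caudal arch and trophoblast list means were highest on labelled-null replicate 3. Over labelled-null replicates 1 to 3 the cranial neuron list mean was 5.52, 5.54 and 5.52, and Hoxa2 read 5.65, 6.34 and 4.72. The mean of allantois, yolk sac and blood was lower on each labelled-null array than on any wild-type array. The part of these cells in the Hoxa2 values was not tested.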

How the data were processed

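Gene expression was measured on 6 Affymetrix Mouse Genome 430 2.0 arrays, 3 per genotype, from 100 ng of total RNA each, per the labels' protocols. Each probe set has 1 deposited log2 value per array, which the authors made with GCRMA, per the submitters' processing notes. No version of it was found in the labels, and the log2 scale was read from the values (1.95 to 15.11). Precision is limited by there being 3 arrays per genotype. Of 45101 probe sets, 64 controls were left out.

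Probe sets above 4 on at least 3 arrays (37515) were fitted with limma 3.58.1 in R 4.3.3 (lmFit, eBayes with an intensity trend, genotype alone), adjusted by Benjamini-Hochberg over all of them with a threshold of 0.05, after the fit was tested on simulated data. The members and lists were chosen with earlier results of these data known. Lists use each gene's brightest set. All Hox genes are named, and of each list up to 4 tested genes with the smallest p. Other genes named to describe markers were chosen after their values were seen. Alternatives covered the filter, normalization, trend, probe set choice, array weights, replicate block, reference percentile and each array left out.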

Additional observations from a re-analysis of the deposited data

How the results depend on the processing

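Hox sets past the threshold numbered 0 under every alternative with all 6 arrays (limma, with 1 or 2 at an unadjusted p under 0.05), and 0 to 1 with 1 array left out, the 1 being Hoxa2 without labelled-null replicate 3. Fits with 1 array left out kept the sets filtered on all 6 arrays, a filter that Hoxa2 met only with all 3 labelled-null arrays included. The difference of Hoxa2 kept its sign throughout, at 1.90 to 2.71 with 1 array left out, and its adjusted p ran from 0.188 (array weights) to 1 over alternatives with all arrays and no block. What a shared replicate number means is not stated, and it was not taken as pairing: deviations of same-numbered arrays correlated at 0.315, 0.0785 and 0.140, and those of other pairs at -0.224 to 0.115. With the replicate block 4 probe sets were higher and 8 lower, and Hoxa2 had an adjusted p of 0.0824, still not past the threshold.

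Over all probe sets 0 were higher and 2 lower. There was 1 lower with values under 4 raised to 4 and 1 without the intensity trend. Fitting the brightest set of each gene gave 2 higher and 4 lower, the mean of a gene's sets 0 and 0 (in limma 246 and 231 had an unadjusted p below 0.05), and array weights 1 higher and 3 lower. With 1 array left out there were 0 to 8 higher and 0 to 5 lower. Fewer or more features tested also moves the adjustment; the cause was not tested.

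Hox genes over the reference limit changed with the limit: 2 in each genotype at the 90th percentile, 0 and 0 at the 99th, 1 and 1 when 2 of 3 arrays sufficed, 21 and 23 at a fixed level of 4, and 15 and 16 at the 75th percentile, which was chosen after seeing the data; the limit itself sets these counts. With 1 array left out the wild-type count was 0 to 1.

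Small differences changed sign with 1 array left out, none of them past the threshold. The ranges were -0.17 to 0.47 for Hoxb1, -0.0508 to 0.0855 for the 1452421_at set of Hoxa3, -0.10 to 0.34 for the brighter set of Hoxa5, -0.0870 to 0.0354 for Hoxb5 (0.0314 with array weights), -0.0334 to 0.0426 for the brightest set of Hoxc6, -0.0466 to 0.20 for Hoxa7, -0.16 to 0.49 for Hoxc8, -0.0334 to 0.27 for Hoxb9, -0.11 to 0.10 for Hoxc9, -0.18 to 0.00738 for the brighter set of Hoxa10, -0.13 to 0.0389 for Hoxd12 and -0.0793 to 0.0464 for Hoxb13. The remaining tested Hox sets kept their direction under every alternative run. Arrays give no count behind a value, so signal over background limits these sets: 14 of 48 were above 4 on no array, and their differences have no reliable size.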
